A study of Mus musculus with 20 samples.

Results

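The set described here is made up of Aig1, Slc9a3r2, Serpinb6b, Pgbd5, Pkd2l2, Bmp6, C1qtnf4, Ppfia4 and Sft2d2, which are 9 of the 31053 genes in the count matrices. They were chosen by name because an earlier look at the same libraries had found them higher in splenic B cells of Eµ-TCL1 mice than in those of Eµ-PRMT5 mice. The spleen comparisons between genotypes are therefore given as a description, with no test. The tests concern the lymph nodes, the split of B cells by Cd5 and the T cells, and B cells are set beside T cells as a description. B cells were barcodes with at least 3 unique molecular identifiers (UMIs) of Cd79a and Cd79b together, none of Cd3d, Cd3e or Cd3g, and fewer than 20 of Jchain. T cells had at least 2 Cd3 UMIs, none of Cd79a or Cd79b and the same limit on Jchain.

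Chronic lymphocytic leukemia is a disease of mature B cells that carry CD5, a surface protein of T cells and of the B-1a subset. The Eµ-TCL1 mouse, in which human TCL1 is driven in B cells, is its most used mouse model and fills spleen, nodes and blood with Cd5-positive B cells. PRMT5 is an arginine methyltransferase that places symmetric dimethyl marks on histones, splicing factors and other proteins.

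The genes have unlike roles. Bmp6 encodes a secreted bone morphogenetic protein best known for its part in iron control through hepcidin, and C1qtnf4 a secreted protein of the C1q and TNF-related family. Slc9a3r2 (NHERF2) is a PDZ scaffold that ties membrane proteins to ezrin, radixin and moesin under the cell surface, and Ppfia4 is liprin-alpha-4, of a scaffold family known from synapses. Aig1 encodes a membrane-bound hydrolase of branched fatty acid esters, related to Adtrp. Serpinb6b is an intracellular serine protease inhibitor of clade B. Pkd2l2 belongs to the polycystin channels, Sft2d2 to a small family linked to vesicle transport at the Golgi, and Pgbd5 derives from a piggyBac transposase.

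Single-cell RNA was measured in 20 libraries from 13 mice: 5 spleens with the Eµ-PRMT5 transgene, 4 with Eµ-TCL1 and 4 with both (Eµ-PRMT5/TCL1), and sub-mandibular lymph nodes of 3 of the Eµ-TCL1 and all 4 double transgenic mice. Each node came from a mouse that also gave a spleen, so replicates within a group were separate mice. The labelled strain was C57BL/6N, while the methods name C57BL/6J as the background of the Eµ-TCL1 line. In the Eµ-PRMT5 mice a human PRMT5 cDNA stood behind a mouse immunoglobulin heavy chain promoter and the Eµ enhancer, and the double transgenics came from a cross with homozygous Eµ-TCL1 mice. Eµ-PRMT5 spleen 3 carries the identifier that the methods give to a founder of that line. Tissue was taken when a mouse met criteria for early removal, cells were not sorted, and neither ages nor mice without a transgene enter the comparisons. Both transgenes are human, and their RNA was not analysed here.

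The libraries held 9348094 to 72440894 UMIs each, and the gate gave 30890 B cells in all, 195 to 5136 per library, and 27888 T cells, 46 to 4299 per library. B cells had a library median of 4267 to 16712.5 UMIs. T cell markers reached 1.88 to 11.99 CPM (a gene's UMIs divided by all UMIs of the gated cells, times 1e6) in the B cells, against 1755 to 4400 CPM in the T cells, where B cell markers summed to 0 to 18.4 CPM. The marker lists include Cd3d, Cd3e, Cd3g, Cd79a and Cd79b, which the gates themselves fix. These sums are therefore no independent measure of purity. Eµ-PRMT5 spleen 4 stood apart, with B cell markers at 1040.05 CPM against 4082 CPM or more in the nodes and 4352 CPM as its group's median. Cells with a Cd3 UMI were left out of the B cells, which took 1.71% to 69.3% of the Cd79-positive cells of a library, with a median of 27.7%. The highest shares were 69.3% in Eµ-PRMT5 spleen 4, 62.9% in Eµ-PRMT5/TCL1 spleen 2, 62.5% in Eµ-TCL1 node 1, 57.0% in Eµ-TCL1 spleen 1 and 55.7% in Eµ-PRMT5/TCL1 node 4. By Xist, 4 of 5 Eµ-PRMT5, 1 of 4 Eµ-TCL1 and 3 of 4 Eµ-PRMT5/TCL1 spleens were female, so genotype and sex were partly mixed in the spleens, and the part of sex in the spleen values was not tested. Among the nodes 1 of 3 Eµ-TCL1 and 3 of 4 Eµ-PRMT5/TCL1 libraries were female.

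Among the 4 members with the most B cell UMIs, Serpinb6b was called between Cd5-positive and Cd5-negative cells and the other 3 were not. The stretches just upstream of their transcription starts are shown so that they can be set side by side. They are RefSeq sequences of GRCm38.p6, read 5′ to 3′ on the gene's strand and ending at the base before the first transcript start, with matches to searched motifs in capitals. Aig1 lies on chr10:13868981-13869207 (minus strand), Slc9a3r2 on chr17:24650328-24650555 (minus), Serpinb6b on chr13:32965011-32965208 (plus) and Sft2d2 on chr1:165194439-165194688 (minus).
Aig1: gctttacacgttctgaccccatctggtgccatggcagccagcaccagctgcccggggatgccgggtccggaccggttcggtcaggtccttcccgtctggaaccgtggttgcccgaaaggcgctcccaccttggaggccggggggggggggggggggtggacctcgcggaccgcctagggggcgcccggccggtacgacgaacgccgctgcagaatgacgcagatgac
Slc9a3r2: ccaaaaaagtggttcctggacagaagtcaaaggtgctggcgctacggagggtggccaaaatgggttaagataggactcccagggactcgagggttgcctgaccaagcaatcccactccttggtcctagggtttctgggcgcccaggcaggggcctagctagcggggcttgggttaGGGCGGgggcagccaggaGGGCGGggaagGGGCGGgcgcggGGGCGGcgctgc
Serpinb6b: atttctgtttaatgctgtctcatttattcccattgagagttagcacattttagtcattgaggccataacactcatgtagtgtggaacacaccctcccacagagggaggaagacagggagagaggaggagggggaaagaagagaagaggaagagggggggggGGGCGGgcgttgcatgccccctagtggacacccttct
Sft2d2: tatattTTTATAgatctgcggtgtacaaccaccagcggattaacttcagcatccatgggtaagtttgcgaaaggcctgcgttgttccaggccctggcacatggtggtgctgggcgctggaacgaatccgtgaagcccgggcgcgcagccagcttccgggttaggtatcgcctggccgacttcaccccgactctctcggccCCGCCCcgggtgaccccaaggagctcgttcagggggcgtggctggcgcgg

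The motifs searched on both strands were the GC box GGGCGG, the CCAAT box, the TATA box TATAAA, the E-box CACGTG, the ETS core GGAAGT, the AP-1 site TGANTCA and the forkhead site GTAAACA. The Slc9a3r2 window held 4 GGGCGG matches, Serpinb6b and Sft2d2 1 each and Aig1 none, while 24.3% to 32.7% of all 32851 promoters held at least 1 in windows of these lengths. Sft2d2 also had 1 TATAAA match at the far end of its window, a motif in 12.4% of all promoters. No other motif was found in the 4 windows, and no matches overlapped. CpG pairs numbered 22 in Aig1, 21 in Sft2d2, 12 in Slc9a3r2 and 2 in Serpinb6b, beside a median of 6 over all promoters at 250 bases, so the window of Serpinb6b was the poorest in CpG of these 4.

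The B cells of the genotypes also differed in 2 genes of follicular B cells, named after their values were seen. Fcer2a, which encodes the low-affinity IgE receptor CD23, stood at 174, 38.1, 18.3, 0 and 17.2 CPM in Eµ-PRMT5 spleens 1 to 5 and at 0.434 CPM or less in every Eµ-TCL1 spleen. Cr2, the complement receptor CD21, stood at 85.1, 10.6, 14.3, 0 and 15.1 CPM and at 2.27 CPM or less. In Eµ-PRMT5/TCL1 spleens Fcer2a reached 0.666 CPM and Cr2 3.07 CPM. So 4 of 5 Eµ-PRMT5 spleens held more of both genes than any spleen with the TCL1 transgene, and spleen 4 held none. Myeloid markers in the B cells summed to 289 to 2161 CPM in Eµ-PRMT5, 467 to 1288 CPM in Eµ-TCL1 and 105 to 1991 CPM in Eµ-PRMT5/TCL1 spleens. The part of a different mix of B cells, or of myeloid RNA, in the spleen values of the members was not tested.

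In splenic B cells Aig1 (ENSMUSG00000019806; chromosome 10, 13647054 to 13868980, GRCm38) fell into 3 bands. In Eµ-TCL1 spleens 1 to 4 it stood at 113, 129, 121 and 175 CPM, in Eµ-PRMT5/TCL1 spleens 1 to 4 at 65.2, 79.4, 88 and 88.9 CPM, and in Eµ-PRMT5 spleens 1 to 5 at 49.9, 47.9, 51.5, 23.7 and 35.6 CPM. The 3 groups did not overlap, the double transgenics lying between the single ones. After thinning each cell to 1000 UMIs, so that depth does not set the share, 12.7% ± 2.55 (SD, n = 4) of Eµ-TCL1, 8.24% ± 1.56 (n = 4) of Eµ-PRMT5/TCL1 and 3.12% ± 0.575 (n = 5) of Eµ-PRMT5 B cells held an Aig1 UMI. Without thinning the shares were 58.5%, 44.6% and 25.9%. In T cells, thinned, the group means were 3.66%, 4.13% and 4.39%, so the Eµ-PRMT5 share in B cells was no higher than that in T cells, which lack the B cell program.

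Slc9a3r2 (ENSMUSG00000002504; chromosome 17, 24639286 to 24650327) varied more within a genotype. Eµ-TCL1 spleens 1 to 4 had 43.9, 60.0, 16.9 and 55.4 CPM and Eµ-PRMT5/TCL1 spleens 1 to 4 had 7.74, 29.3, 12.7 and 26.8 CPM. Eµ-PRMT5 spleens 2 to 5 had 3.39, 0.757, 3.54 and 2.97 CPM, and spleen 1 had no UMI, which allows up to 0.420 CPM by the limit of 3 counts. Every Eµ-PRMT5 spleen was thus under every spleen with the TCL1 transgene, while the Eµ-TCL1 and Eµ-PRMT5/TCL1 ranges overlapped through Eµ-TCL1 spleen 3. Of the 6450 Slc9a3r2 UMIs in B cells of all libraries, 75 came from Eµ-PRMT5 spleens. Thinned to 1000 UMIs, 3.37% ± 1.25 (SD, n = 4) of Eµ-TCL1, 1.76% ± 1.26 (n = 4) of Eµ-PRMT5/TCL1 and 0.109% ± 0.122 (n = 5) of Eµ-PRMT5 B cells in the spleen held a UMI of this gene, beside means of 0.0228% to 0.0326% in T cells. Without thinning the shares in B cells were 18.8%, 10.7% and 2.21%.

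Serpinb6b (ENSMUSG00000042842; chromosome 13, 32965209 to 32979067) had like means in both genotypes with the TCL1 transgene, 41.5 ± 31.7 CPM (SD, n = 4) in Eµ-TCL1 and 38.5 ± 15.9 CPM (n = 4) in Eµ-PRMT5/TCL1 spleens. The Eµ-PRMT5 spleens were lower, at 7.15, 4.90, 11.1, 3.12 and 10.4 CPM, against a lowest value of 16.2 CPM in the other 2 groups. All 5 of those values were also below the free RNA of the same libraries, measured in barcodes of 10 to 100 UMIs, where Serpinb6b stood at 17.4 to 77.4 CPM. So were all 4 Eµ-PRMT5/TCL1 spleens and 2 of the 4 Eµ-TCL1 spleens, so a level below free RNA did not mark the low group. Serpinb6b has close relatives in the genome, and how reads shared with them were assigned is not given in the sources used here, so its counts carry that uncertainty.

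Pgbd5 (ENSMUSG00000050751) was near 0 in the spleens of both other genotypes. It reached 3.39, 22.3, 4.95 and 5.95 CPM in Eµ-TCL1 spleens 1 to 4, but 0.190, 0, 0.471 and 1.86 CPM in Eµ-PRMT5/TCL1 spleens 1 to 4. Eµ-PRMT5 spleens 3 and 4 had 0.126 and 0.425 CPM and the other 3 had no UMI, with limits of 0.420 to 1.13 CPM. Pkd2l2 (ENSMUSG00000014503) had a like order of groups, with 2.40 to 6.53 CPM in Eµ-TCL1 spleens, 0.376 to 1.02 CPM in the double transgenics and 0.566 to 0.841 CPM in Eµ-PRMT5 spleens. For these genes the double transgenics overlapped the Eµ-PRMT5 spleens and lay below every Eµ-TCL1 spleen.

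The secreted factors lay at different depths of the range. Bmp6 (ENSMUSG00000039004) ranged in Eµ-TCL1 spleens from 1.69 to 9.96 CPM, in the double transgenics from 1.27 to 5.50 CPM and in Eµ-PRMT5 spleens from 0 to 0.883 CPM, where 3 of 5 libraries had no UMI. C1qtnf4 (ENSMUSG00000040794) ranged from 9.99 to 28.5, 3.46 to 12.4 and 1.77 to 8.58 CPM in the same order. Bmp6 therefore separated the Eµ-PRMT5 spleens from both other groups, whereas C1qtnf4 in the double transgenics overlapped both single transgenics.

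Ppfia4 (ENSMUSG00000026458) and Sft2d2 (ENSMUSG00000040848) were the members whose Eµ-PRMT5 and Eµ-TCL1 spleens overlapped. Ppfia4 ranged from 0.142 to 1.48 CPM in Eµ-PRMT5 and from 1.14 to 13.8 CPM in Eµ-TCL1 spleens, and its highest spleen mean was that of the double transgenics at 8.04 ± 5.62 CPM (SD, n = 4). Sft2d2 ranged from 18.4 to 46.0 CPM in Eµ-PRMT5, 29.7 to 50.7 CPM in Eµ-PRMT5/TCL1 and 45.7 to 91.5 CPM in Eµ-TCL1 spleens. Of the 9 members it had the smallest fitted difference of Eµ-PRMT5 from Eµ-TCL1, -1.37 on the log2 scale, beside -1.80 for Aig1.

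**Figure D1:**
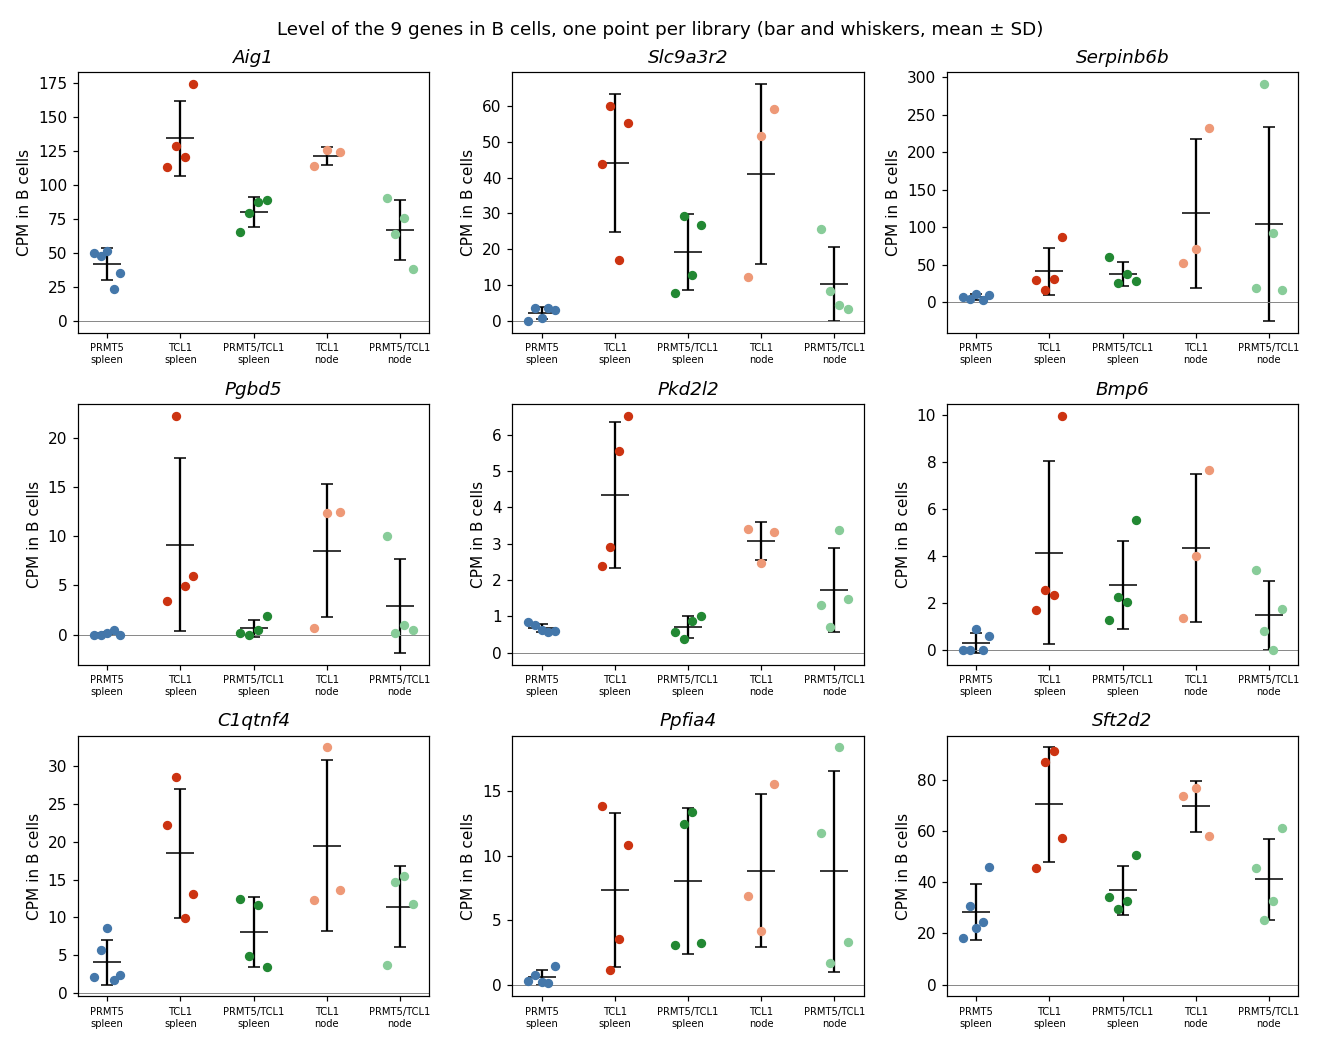
Level of each member in B cells (CPM, vertical axes, 1 panel per gene with its own scale) for the 5 groups; points are libraries, bars the group mean and whiskers 1 SD. Aig1 runs from a mean of 41.7 CPM in Eµ-PRMT5 spleens to 134 CPM in Eµ-TCL1 spleens. Serpinb6b has its highest group means in the nodes, where single libraries range from 16.5 to 292 CPM.

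In counts, 7 of the 9 members were lower in every Eµ-PRMT5 than in every Eµ-TCL1 spleen, where 1.92% of the 11541 genes tested were. The edgeR fit across all genes put Aig1 alone past its threshold in the lower direction, so the share of genes so placed, 0.00866%, is Aig1 itself. Each of these contrasts chose the members or shares libraries with the one that did, so these are no tests and nothing is read from them. In Eµ-PRMT5/TCL1 spleens Aig1, Pgbd5 and Pkd2l2 were below every Eµ-TCL1 spleen (1.19% of genes were), and in Eµ-PRMT5 spleens Aig1, Slc9a3r2, Serpinb6b, Bmp6 and Ppfia4 were below every Eµ-PRMT5/TCL1 spleen (1.41% of genes were). The same members made up these 3 counts with doublets kept and with a minimum of 6 Cd79 UMIs. A gate that let stray Cd3 UMIs pass also gave the same members. Leaving out Eµ-PRMT5 spleen 4 added no member. It could not remove any, since that spleen was in the lower group or in neither.

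The lymph nodes, which the choice of genes did not use, asked whether the double transgenics also carried less of these RNAs than Eµ-TCL1 mice outside the spleen. Aig1 stood at 114, 126 and 124 CPM in Eµ-TCL1 nodes 1 to 3 and at 90.4, 63.7, 75.8 and 38.1 CPM in Eµ-PRMT5/TCL1 nodes 1 to 4. Thinned to 1000 UMIs, 11.1% ± 2.53 (SD, n = 3) and 5.90% ± 1.78 (n = 4) of the cells held an Aig1 UMI. Every Eµ-PRMT5/TCL1 node was below every Eµ-TCL1 node in CPM, which held in this direction for 4.25% of the 10892 genes tested. The difference was -0.82 ± 0.26 on the log2 scale (SE, 95% interval -1.40 to -0.23), with an unadjusted p of 0.0122 and an adjusted p of 0.656 in edgeR's quasi-likelihood test, so it was not called. These nodes came from the same mice as the spleens of their genotype, so they are another tissue and not other animals. Choosing genes high in the Eµ-TCL1 spleens thus favoured a negative difference here.

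Of the 9 members Slc9a3r2 had the largest fitted difference in the nodes. Eµ-TCL1 nodes 1 to 3 had 12.3, 51.8 and 59.2 CPM and Eµ-PRMT5/TCL1 nodes 1 to 4 had 25.5, 8.16, 4.35 and 3.1 CPM. The groups overlapped because Eµ-TCL1 node 1 was below Eµ-PRMT5/TCL1 node 1. The log2 difference was -2.07 ± 0.72 (SE, 95% interval -3.71 to -0.44), with an adjusted p of 0.661 by edgeR.

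Sex moved with these values. Among females Slc9a3r2 was 12.3 CPM in the 1 Eµ-TCL1 node and 3.1 to 8.16 CPM in the 3 Eµ-PRMT5/TCL1 nodes, and among males 51.8 to 59.2 CPM in 2 nodes and 25.5 CPM in 1. Aig1 was 114 CPM against 38.1 to 75.8 CPM in females and 124 to 126 CPM against 90.4 CPM in males. Within each sex these values rest on 1 node on 1 side, the Eµ-TCL1 female and the Eµ-PRMT5/TCL1 male, so no spread could be given there. With Xist as a covariate the Slc9a3r2 difference was -1.13 and that of Aig1 -0.65 on the log2 scale.

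The other 7 members also had negative fitted differences in the nodes, and none passed the test. Bmp6 was at -1.58 ± 0.82, Pgbd5 at -1.74 ± 1.23, Pkd2l2 at -0.88 ± 0.60, C1qtnf4 at -0.72 ± 0.55 and Sft2d2 at -0.66 ± 0.33 on the log2 scale (SE). Serpinb6b, at -0.18 ± 0.99, and Ppfia4, at -0.10 ± 0.81, were near 0 with wide intervals, of -2.45 to 2.08 and -1.96 to 1.76. Single nodes and the Xist covariate moved these values. Pgbd5 was at -0.49 and Bmp6 at -0.67 with the covariate, C1qtnf4 at -0.08 without Eµ-TCL1 node 2, and Ppfia4 at 0.80 and Serpinb6b at 0.86 without Eµ-TCL1 node 3. The median over the 9 members was -0.82, beside 0.0170 over all genes, of which 48.0% were lower. The Eµ-TCL1 nodes came from mice whose spleens chose the members as high, which favoured negative differences. Nothing is therefore read from this median or from the shared direction. Of all genes 0% were called by edgeR, 735 had an unadjusted p under 0.05, and DESeq2 called 63, none of them a member.

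**Figure D2:**
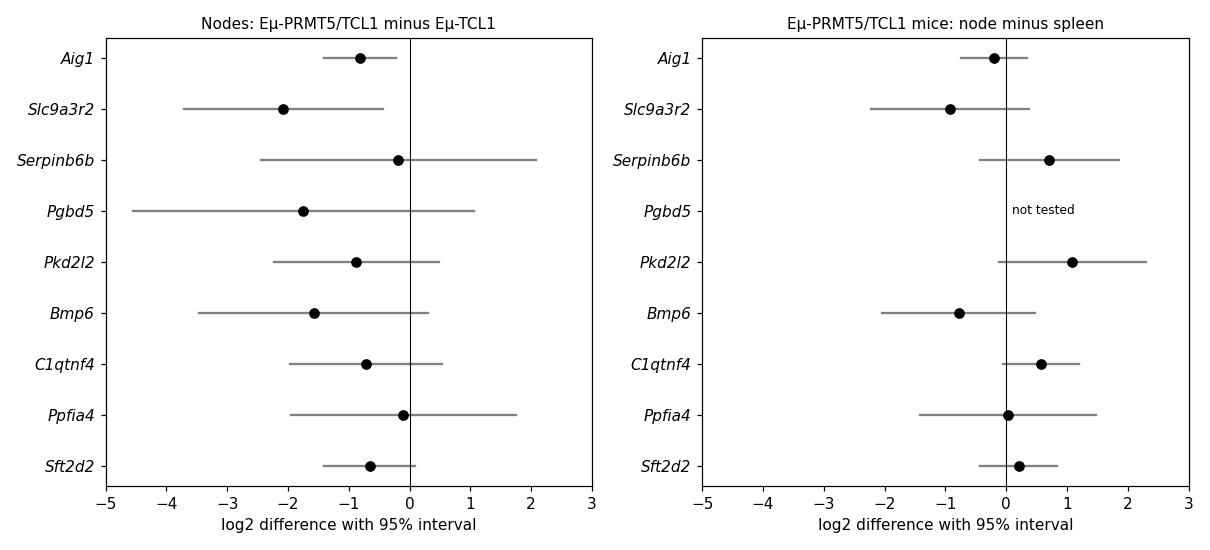
Fitted log2 difference in lymph node B cells, Eµ-PRMT5/TCL1 minus Eµ-TCL1 (horizontal axis), for each member, with its 95% interval from edgeR. All 9 estimates are below 0, and the intervals of Aig1 and Slc9a3r2 leave out 0 although neither passes after adjustment. The Eµ-TCL1 nodes came from mice whose spleens chose the members as high, which favours estimates below 0.

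Between tissues of the same mouse the members did not shift together. In the 4 Eµ-PRMT5/TCL1 mice, with the mouse as a block, 8 members could be tested, edgeR called none of them and 0% of all 10972 genes, and 573 genes had an unadjusted p under 0.05. Pkd2l2 was higher in the node in 4 of 4 mice (log2 difference 1.09 ± 0.52, adjusted p = 0.938), and so was C1qtnf4 (0.58 ± 0.27, adjusted p = 0.938). Aig1 was higher in the node in 1 of 4 mice (-0.20 ± 0.23, 95% interval -0.75 to 0.34). Bmp6 was lower in the node in all 4 mice (-0.78 ± 0.54), and Sft2d2, at 0.20 ± 0.27, and Ppfia4, at 0.03 ± 0.62, were higher in 2 of 4. In the B cells of these nodes Pkd2l2 rested on 37 UMIs and Bmp6 on 44. The share of all genes that moved 1 way in all 4 mice was not counted, so nothing is read from such agreement. Slc9a3r2 was higher in the node in 1 of 4 (-0.92 ± 0.56). Pgbd5, the member with too few counts to be tested there, was higher in the node in 3 of 4. In the 3 Eµ-TCL1 mice with both tissues, not tested, Pkd2l2, Aig1, Slc9a3r2, Bmp6 and Pgbd5 were each higher in the node in 1 of 3 and C1qtnf4, Ppfia4 and Sft2d2 in 2 of 3.

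Serpinb6b varied widely among the nodes. It was at 51.9, 71.6 and 233 CPM in Eµ-TCL1 nodes 1 to 3 and at 18.7, 292, 92.3 and 16.5 CPM in Eµ-PRMT5/TCL1 nodes 1 to 4. All 3 Eµ-TCL1 nodes were above the spleen of the same mouse, as were 2 of 4 Eµ-PRMT5/TCL1 nodes, and the blocked log2 difference in the double transgenics was 0.71 ± 0.49 (adjusted p = 0.942 by edgeR). Myeloid markers summed to 113 to 3191 CPM in the node B cells, with the highest sum in Eµ-PRMT5/TCL1 node 3 and 308 CPM in node 2, the library highest for Serpinb6b. The titles of that node and of Eµ-PRMT5/TCL1 spleen 1, from the same mouse, carry the mark RT, by which the study abbreviates Richter's transformation, and the labels say no more of it. That spleen was also the highest of its group for Serpinb6b, at 61.0 CPM. Without that spleen the blocked tissue difference of Serpinb6b was 0.15, and without the node the Serpinb6b difference between genotypes in the nodes was -1.46 on the log2 scale, neither of them called.

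The split by Cd5 asked whether the members mark the Cd5-positive cells. Over 12 spleens with at least 20 cells on each side, paired within the library, 6 members passed the filter on low counts and 1 was called by edgeR, beside 0.402% of the 9956 genes tested. That member was Serpinb6b, higher in Cd5-positive B cells by 0.72 ± 0.10 on the log2 scale (SE, 95% interval 0.52 to 0.92, adjusted p = 0.000985). In Eµ-TCL1 spleens 1 to 4 it stood at 35.6, 20.1, 47.7 and 139 CPM in Cd5-positive and 28.7, 15.8, 27.5 and 68.5 CPM in Cd5-negative cells. In Eµ-PRMT5/TCL1 spleens 1 to 4 the pairs were 100.2 against 45.4, 45.8 against 21.8, 46.5 against 31.7 and 36.6 against 25.6 CPM.

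Every spleen with the TCL1 transgene thus had the higher Serpinb6b level in its Cd5-positive cells. So did all 7 nodes, which were not in the fit, for 15 of 15 libraries with the transgene. These nodes came from mice whose spleens were in the fit, so they add a tissue and no animals. The share of all genes with 1 direction in all 15 libraries was not counted. The pairs of the Eµ-TCL1 nodes 1 to 3 were 111 against 16.5, 136 against 43.8 and 321.6 against 191 CPM. Of the 4 Eµ-PRMT5 spleens tested, 1 was higher, and all 4 had 11.8 CPM or less on both sides. The split in Eµ-PRMT5 spleens minus that in Eµ-TCL1 spleens was -0.63 ± 0.40 (SE, 95% interval -1.46 to 0.21, adjusted p = 0.961), and edgeR called 0% of all genes in that comparison, with 463 genes at an unadjusted p under 0.05. Nothing is read from the members there, since they were chosen for being low in Eµ-PRMT5 spleens, whose Cd5-positive cells held 42 UMIs of Serpinb6b, 22 of Slc9a3r2 and 1 of Ppfia4. Of all B cells 6011 were Cd5-positive, 1.16% to 42.6% per library, or 0.0771% to 7.12% at 1000 UMIs per cell, so that many cells on the other side may have missed a Cd5 UMI.

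For Aig1 the Cd5 split was narrow around 0. The log2 difference was -0.0013 ± 0.047 (SE, 95% interval -0.10 to 0.10), and Cd5-positive cells were higher in 6 of 12 spleens and 3 of 7 nodes. Slc9a3r2 (0.10, interval -0.12 to 0.33), C1qtnf4 (-0.05, -0.28 to 0.17), Ppfia4 (0.10, -0.20 to 0.39) and Sft2d2 (0.08, -0.05 to 0.22) were not called either. Slc9a3r2, C1qtnf4 and Ppfia4 entered this fit through the spleens with the TCL1 transgene, so their intervals describe those spleens. Cd5-positive cells of the Eµ-PRMT5 spleens held 22, 26 and 1 of their UMIs. Pgbd5, Pkd2l2 and Bmp6 had too few counts to enter the fit.

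Markers of other cells were compared across the same split. T cell markers were higher in the Cd5-positive cells of 7 of 12 spleens, with medians of 4.76 and 5.84 CPM on the positive and negative sides, and NK markers in 3 of 12. Of that T cell list Cd3d, Cd3e and Cd3g were 0 on both sides by the gate, so T cell RNA could show only through its other genes. T cells carry Cd5 as well, and their mean Serpinb6b level was above that of B cells in the spleens of each genotype. The part of T cell RNA in the split was not tested. Myeloid markers were higher in 1 of 12, with medians of 265 and 1030 CPM, and erythroid markers in 2 of 12, with 5.18 and 17.6 CPM. Plasma and stromal markers were each higher in 4 of 12. Cd5-positive cells had more UMIs, with library medians of 5045 to 19200 against 4151 to 15768 over all 13 spleens. The split itself favours this, since a Cd5 UMI is more readily seen in a cell with more UMIs. The part of these markers and of depth in the Serpinb6b difference was not tested. Only thinning the cells to 1000 UMIs was tried, where Serpinb6b fell under the filter.

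**Figure D3:**
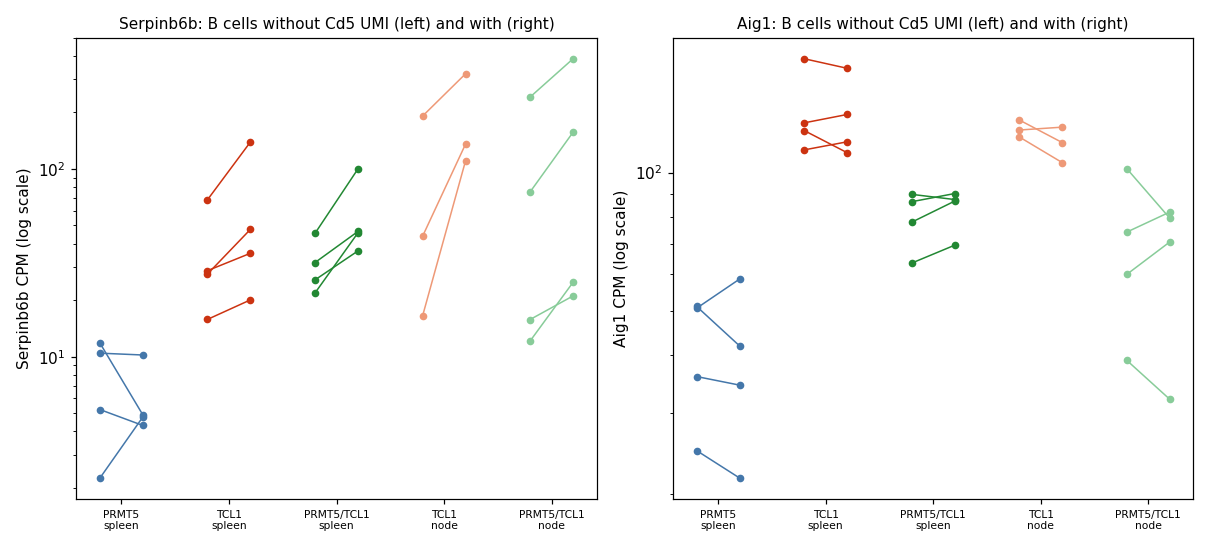
Aig1 and Serpinb6b in Cd5-negative and Cd5-positive B cells (CPM, log axes), with a line joining both sides of each library and colours for the groups. The Serpinb6b lines rise in all 15 libraries with the TCL1 transgene, whereas those of Aig1 rise in 8 of 15. The nodes came from mice that also gave a spleen.

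T cells served as the contrast. Over 13 spleens paired within the library, edgeR called 58.1% of 10512 genes between B and T cells, so a call here says little by itself. The fit pools the spleen B cells whose levels chose the members, high in Eµ-TCL1 and low in Eµ-PRMT5 spleens, so the values of the 4 members that passed the filter are a description, whichever way they point. Aig1 was higher in B cells by 0.89 ± 0.29 on the log2 scale (SE). B cells were above T cells in all 8 spleens with the TCL1 transgene, in all 7 nodes and in 3 of 5 Eµ-PRMT5 spleens, where the means were 41.7 CPM in B and 45.3 CPM in T cells. The exceptions were Eµ-PRMT5 spleen 1 with 49.9 against 61.6 CPM and spleen 4 with 23.7 against 70.0 CPM in its 46 T cells. Serpinb6b was lower in B cells by 2.25 ± 0.49, and B cells were higher in 1 of 13 spleens but 5 of 7 nodes. Eµ-PRMT5 spleens had means of 7.33 CPM in B and 127 CPM in T cells, Eµ-TCL1 spleens 41.5 and 78.1 CPM, and Eµ-PRMT5/TCL1 spleens 38.5 and 174 CPM. The T cell mean of the Eµ-PRMT5 spleens was raised by spleen 4, at 385 CPM, and their median was 68.9 CPM.

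T cells held Serpinb6b at 13.3 to 385 CPM over the 20 libraries. The highest value came from the 46 T cells of Eµ-PRMT5 spleen 4, which also had the highest sum of myeloid markers among T cells, 7796 CPM, where the 20 libraries had 85.2 CPM or more and a median of 695 CPM. The part of myeloid RNA in these Serpinb6b levels was not tested. In Eµ-TCL1 nodes the order was the other way, with T cells at 24 ± 17.3 CPM (SD, n = 3) and B cells at 119 ± 99.3 CPM. Thinned to 1000 UMIs, 2.15% of the T cells and 7.27% of the B cells there held a UMI. C1qtnf4 and Sft2d2 had log2 differences between B and T cells of 0.32 ± 0.38 and 0.26 ± 0.23.

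The other 5 members had most of their UMIs in B cells and fell under the filter on low counts. Slc9a3r2 had 6450 UMIs in the 30890 B cells and 25 in the 27888 T cells of all libraries, Pgbd5 had 1382 and 3, Bmp6 713 and 1, Ppfia4 1256 and 79, and Pkd2l2 506 and 47. B cells were above T cells in 19 of 20 libraries for Slc9a3r2, the exception being Eµ-PRMT5 spleen 1 with no UMI in B cells and 1 in T cells, in 20 for Pkd2l2, 18 for Ppfia4 and 16 each for Pgbd5 and Bmp6. As for Aig1, these sums include the Eµ-TCL1 spleens that chose the genes and are a description. In Eµ-PRMT5 spleens alone, with 4281 B and 7681 T cells, Ppfia4 had 13 UMIs in B and 12 in T cells, Pkd2l2 had 23 and 15, Pgbd5 7 and 0, and Bmp6 9 and 0. B cells also exceeded the free RNA of their library in 19 of 20 libraries for Aig1 and 16 of 20 for Slc9a3r2, but in 7 of 20 for Serpinb6b. For the other 6 members the count was 9 (Sft2d2), 10 (Bmp6 and Pgbd5), 11 (Pkd2l2) and 12 (C1qtnf4 and Ppfia4) of 20, so B cells of many libraries were not above free RNA for these genes. Slc9a3r2 itself was above free RNA in 2 of the 5 Eµ-PRMT5 spleens, with means of 2.13 CPM in B cells and 4.40 CPM in free RNA. In these 5 spleens it had 75 UMIs in the 4281 B cells and 5 UMIs in the 7681 T cells. The part of free RNA in its level in those B cells was not tested.

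Within T cells the genotypes gave no call among the members. Between Eµ-PRMT5 and Eµ-TCL1 spleens edgeR called 0 of 4 members tested, beside 0.0362% of 11048 genes, and 663 genes had an unadjusted p under 0.05. Aig1 differed by 0.26 ± 0.35 on the log2 scale (95% interval -0.50 to 1.02). With Eµ-PRMT5/TCL1 set against Eµ-TCL1 spleens, 0 of 4 members and 0% of genes were called, with 765 genes at an unadjusted p under 0.05. The member farthest from 0 there was C1qtnf4, at -1.76 ± 0.56 (adjusted p = 0.693).

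Relatives and pathway partners of the members were read from gene lists. No gene of any list was called in the nodes, between tissues, in the difference of the Cd5 split, or in T cells, and the Cd5 split called Serpinb6b and Cd5 itself, which defines it. Between B and T cells of the spleen, where 58.1% of all genes were called, the direction of the calls differed from list to list. Among NHERF and ERM genes 4 were tested, Ezr, the ezrin that Slc9a3r2 binds, was higher in B cells by 1.09 ± 0.11 on the log2 scale, and Slc9a3r1 (NHERF1) and Msn (moesin) were lower, at -1.38 ± 0.11 and -0.35 ± 0.11. Slc9a3r1 did not share the pattern of Slc9a3r2 across genotypes, with group means of 105 CPM in Eµ-PRMT5, 126 CPM in Eµ-TCL1 and 157 CPM in Eµ-PRMT5/TCL1 spleens.

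Of the clade B serpins 5 were tested between B and T cells. Serpinb1a was higher in B cells (1.60 ± 0.44), and Serpinb6a (-1.91 ± 0.24) and Serpinb9 (-3.79 ± 0.24) were lower. Serpinb6a, a close relative of Serpinb6b, had group means of 7.48 to 12 CPM in B cells of all 5 groups, a narrower range than that of Serpinb6b. Serpinb8, a relative named after its values were seen, was lower in every Eµ-PRMT5 than in every Eµ-TCL1 spleen, at 0.297 to 1.13 against 1.65 to 11.8 CPM, with 0.412 to 3.14 CPM in Eµ-PRMT5/TCL1 spleens. Of all genes 1.92% were so placed, and its Eµ-PRMT5 values rest on 1 to 6 UMIs per library. The relatives Serpinb1a, Serpinb6a and Serpinb9 did not follow, with log2 differences of Eµ-PRMT5 from Eµ-TCL1 spleens of 0.82, 0.06 and -0.0071. In the nodes it was at 2.05, 18.04 and 3.21 CPM in Eµ-TCL1 and at 0 to 1.32 CPM in Eµ-PRMT5/TCL1 mice, and without Eµ-TCL1 node 2 the mean of the former fell from 7.77 to 2.63 CPM. The node difference was -4.00 ± 1.12 on the log2 scale (SE) and was not called (adjusted p = 0.656 by edgeR). Adtrp, the relative of Aig1, stayed at 4.11 CPM or less in every library.

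Of the BMP pathway 10 of 26 genes were tested between B and T cells, 1 higher in B cells and 7 lower, where 58.1% of all 10512 genes were called. The one higher was Id3, a BMP target gene and inhibitor of E proteins, at 3.05 ± 0.38 on the log2 scale. Among the lower were Smad1, a signal carrier of BMP receptors, at -2.94 ± 0.43, the receptor Bmpr2 at -2.76 ± 0.34 and the inhibitory Smad7 at -2.53 ± 0.28.

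Liprins, polycystins, C1q and TNF-related genes and SFT2 genes held 1 or 2 calls each. Ppfibp2, a liprin-beta, was higher in B cells by 6.02 ± 0.32 on the log2 scale, and Ppfia1 was lower at -0.45 ± 0.16. The polycystin Pkd1 (-0.82 ± 0.12) and C1qtnf6 (-5.45 ± 0.42) were lower, and Sft2d3 was higher at 0.32 ± 0.13 with an adjusted p of 0.0486 by edgeR. Of 8 genes known from B-1 cells 7 were called, beside 58.1% of all genes in this comparison. Bhlhe41, Zbtb32, Ahr and Cd9 were higher in B cells and Cd5, Spn and Bhlhe40 lower.

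Across the 20 libraries the genes most like Aig1 in B cells were found by Pearson's r of log2(CPM + 1) among 7596 genes with a mean of at least 10 CPM. They were 1600014C10Rik (r = 0.833), Zcwpw1 (0.829), Adprh (0.823), Tmem80 (0.822) and the member Slc9a3r2 (0.812). Zcwpw1, a reader of histone methylation, had group means of 17.7 CPM in Eµ-PRMT5, 39.5 CPM in Eµ-PRMT5/TCL1 and 97.5 CPM in Eµ-TCL1 spleens. Adprh, an ADP-ribosylarginine hydrolase, had 50, 67.4 and 80.1 CPM in the same order.

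Set against those 7596 genes, Bmp6 would rank 31st, Pkd2l2 38th and Pgbd5 54th, with r of 0.744, 0.738 and 0.717. Ppfia4, also under 10 CPM, would rank 196th (r = 0.628), and C1qtnf4, Sft2d2 and Serpinb6b ranked 163rd, 213th and 242nd, with r of 0.643 to 0.616. The points share mice between spleen and node and the group differences that chose the members, so these values are a description. By group mean Aig1 ran from Eµ-TCL1 spleens and nodes through Eµ-PRMT5/TCL1 spleens and nodes to Eµ-PRMT5 spleens, and of the neighbours in that order only the Eµ-TCL1 nodes and the Eµ-PRMT5/TCL1 spleens did not overlap.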

How the data were processed

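The authors prepared libraries with the 10x Genomics 3′ v2 kit and deposited whole-number UMI counts per gene and barcode, 737280 barcodes per matrix. Their processing notes name Cell Ranger 2.0.1, Seurat 2.2.1 and GRCm38, while the matrix headers name 3.1.0 as the software version. Members and gene lists were chosen with earlier results of these data known. Barcodes were called cells above the UMIs at percentile 99 of the top 3000 divided by 10, where 200 or more genes were seen and mitochondrial UMIs made up 10% or less. The expected share of doublets (0.8% per 1000 cells) was removed by Scrublet score (scanpy 1.11.5), since its automatic threshold marked 631 of 87773 cells; 3542 were removed and 84231 kept. The largest overlap of cell barcodes between 2 libraries was 68, where 64.6 were expected. CPM were made from the UMIs summed over a library's B or T cells; 3′ counts carry no length correction, so levels are not compared between genes.

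Summed counts were tested with edgeR 4.0.16 (quasi-likelihood, TMM, filterByExpr, Benjamini-Hochberg over all genes, called under 0.05), with the library as block for cell splits and the mouse, from the sample titles, for tissues. Eµ-PRMT5 spleen 1, with 15 Cd5-positive B cells, was left out of the Cd5 fits for want of 20. Intervals and limits cover 95% and 3 counts. On simulated counts 4-fold changes were recovered for 51.4% of genes in the node comparison and 95.5% in the Cd5 split. All 9 members are named; of each list up to 4 called genes with the largest change and relatives asked about by name, and for likeness the top 5. Alternatives were DESeq2 1.42.0, its size factors, no filter, other gates, doublets kept, immunoglobulin genes left out, thinning, Xist, blocks and each library left out; the gate that lets stray Cd3 UMIs pass was added after seeing the data. Of the members 7 had a promoter entry in the RefSeq table; C1qtnf4 and Pkd2l2 had none.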

Additional observations from a re-analysis of the deposited data

Results flagged for a closer look

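In 3 of the 36 pairs of gene and group with at least 4 libraries, 1 library lay apart from the rest by Dixon's criterion, which by chance picks about 1 group in 20. Pgbd5 stood at 22.3 CPM in B cells of Eµ-TCL1 spleen 2, with the next highest spleen of that group at 5.95 CPM, and the difference between the Eµ-TCL1 and Eµ-PRMT5 spleen means fell from 9.03 to 4.65 CPM without it. Pgbd5 was also apart in Eµ-PRMT5/TCL1 lymph node 1, at 10.0 CPM against 0.966 CPM or less in the other 3 nodes; this was the 1 male node of its group. Bmp6 stood at 9.96 CPM in Eµ-TCL1 spleen 4, with the next highest at 2.54 CPM, and its difference of means between Eµ-TCL1 and Eµ-PRMT5 spleens fell from 3.84 to 1.90 CPM without it. The cause was not tested.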

How the results depend on the processing

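Of 132 counts of members called under an alternative, 130 stayed within 1.5 times the count reported. The Cd5 split called 0 members instead of 1 at 1000 UMIs per cell, where Serpinb6b was not tested, and B against T cells called 7 instead of 2 with no filter, which tests the 5 members left out. The Serpinb6b Cd5 difference ran from 0.61 to 1.13 over 20 alternatives (adjusted p 2.59e-07 to 0.0177), and the Aig1 node difference from -0.93 to -0.64 over 17 (0.243 to 1.00). Of 731 log2 values 31 changed sign, none of them called. All 45 shares of cells with a UMI moved without thinning. Counts over all genes moved more: in the nodes 0 became 63 with DESeq2 and 11 without Eµ-TCL1 node 1; between tissues 0 became 38 with DESeq2, 21 with no filter and 1 without Eµ-PRMT5/TCL1 spleen 1. In the Cd5 split 40 became 454 with no filter, 227 at 2 Cd5 UMIs, 117 with DESeq2, 114 with stray Cd3 UMIs allowed, 22 with doublets kept, 4 when thinned, and 10 to 71 without 1 library (10 without Eµ-TCL1 spleen 1, 11 without spleen 4, 71 without Eµ-PRMT5 spleen 3). The difference of that split went from 0 to 79 with no filter, 1 with DESeq2, 1 thinned and up to 3 without 1 library. In T cells 4 became 25 with DESeq2, 6 with no filter and 0 to 5 without 1 library, and 0 became 2 with DESeq2.

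Replicate numbers did not pair the genotypes: same-numbered deviations correlated at -0.18 to 0.29 in the nodes. With the replicate block 0 members were called in the nodes and in T cells, and 0, 5 and 2 genes over all; without the mouse block 0 members were called between tissues. In simulated node data 5.88% of 2-fold changes were recovered, an average over genes drawn at random. The rate for a gene of the level and spread of Aig1 was not computed, so nothing is read from it for Aig1.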
